A study of Mus musculus with 6 samples.

Results

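The genes described are the mouse p53 gene Trp53 and 9 genes that its protein is known to switch on: Mdm2, Cdkn1a, Trp53inp1, Pmaip1, Ccng1, Bax, Bbc3, Sesn2 and Zmat3. They were taken by symbol from a table of read counts, and all 10 of the 10 listed symbols were among its 53819 symbols. All 10 also had enough reads to be tested. The samples were 3D aggregates, called gastruloids, of E14, a mouse embryonic stem cell line. The untreated group had 3 libraries, and the other 3 came from aggregates given the synthetic glucocorticoid budesonide for 80 h, both of the same line and with no other treatment or genotype named in the labels. The labels name no vehicle or collection time for the untreated aggregates, and no dose. Nor is it stated that each replicate was its own culture, and the p-values below therefore describe variation among these 6 libraries, part of which may be technical.

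p53 is a transcription factor that is held at a low level by MDM2, an E3 ubiquitin ligase that marks it for degradation and whose own gene p53 activates. When DNA damage or other stress stabilises p53, it binds DNA as a tetramer and raises genes that halt the cell cycle, repair DNA, alter metabolism or trigger apoptosis. Mouse embryonic stem cells are known to carry comparatively abundant p53 and to cycle with a short G1 phase.

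The sequences shown are stretches near the starts of 5 of the genes, all those in which the search described here found the full p53 decamer. They are Cdkn1a, which fell, and 4 genes that rose. A p53 element is a pair of decamers, each made of purines, a C, a pair of A or T, a G and pyrimidines. The decamer reads the same on both strands, so 1 scan covers both. RefSeq promoter windows (build GRCm38.p6, from 250 bases before to 50 after each start) were matched by symbol for 7 of the 10 genes, Sesn2, Bbc3, Bax, Mdm2, Ccng1, Trp53 and Cdkn1a, which had 10 windows between them. The full decamer occurred in 8.36% of all 32851 windows in that table, and in 5 of these 10, which belong to 5 genes. The stretches below run 5′ to 3′ on the gene's strand, end upstream of the start, and have the decamers in capitals. The GRCm38.p6 coordinates apply to these sequences only, since the reads were aligned to GRCm39.
Cdkn1a, chr17:29090866-29090978, plus strand: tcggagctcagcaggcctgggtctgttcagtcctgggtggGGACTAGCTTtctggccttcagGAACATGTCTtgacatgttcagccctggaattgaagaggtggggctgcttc
Ccng1, chr11:40755392-40755511, minus strand: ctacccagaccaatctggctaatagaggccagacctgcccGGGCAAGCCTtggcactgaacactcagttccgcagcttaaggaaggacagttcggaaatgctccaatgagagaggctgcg
Bax, chr7:45467020-45467139, minus strand: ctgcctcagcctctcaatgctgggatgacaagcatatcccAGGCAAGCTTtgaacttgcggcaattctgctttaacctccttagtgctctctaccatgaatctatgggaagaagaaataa
Mdm2, chr10:117710865-117710984, minus strand: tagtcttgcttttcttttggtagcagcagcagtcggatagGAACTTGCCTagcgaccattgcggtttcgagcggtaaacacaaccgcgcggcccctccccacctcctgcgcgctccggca
Trp53, chr11:69580244-69580358, plus strand: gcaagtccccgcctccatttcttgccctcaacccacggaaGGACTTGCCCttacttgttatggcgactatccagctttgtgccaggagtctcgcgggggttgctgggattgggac

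When 2 decamers with a spacer of at most 2 bases were allowed 1 mismatch in all, 0.271% of the windows in the table matched, and 3 of the 7 genes did. The pair of Cdkn1a was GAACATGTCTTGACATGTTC, beginning 51 bases before that start. That of Ccng1 was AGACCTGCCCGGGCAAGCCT, at 195 bases, and that of Bax was AAGCATATCCCAGGCAAGCTT, at 212 bases. The windows of Sesn2 and Bbc3 and the other Cdkn1a window held no full decamer. In the same build that other window, chr17:29093519-29093818, lies downstream of the one with the pair, chr17:29090729-29091028. Its closest pair had 5 mismatches. A match describes letters and not a bound site, and a window without one says nothing about elements elsewhere in the gene.

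Libraries held from 5666168 to 7476862 counted reads. At that depth 3 reads correspond to 0.422 to 0.552 CPM (counts scaled to library size, with TMM factors), and the least abundant of the 10 genes, Bbc3, had 150 to 201 reads per library. Ribosomal RNA, counted as the mitochondrial mt-Rnr1 and mt-Rnr2 and the nuclear Rn18s, took 10.2% to 12.0% of the reads in untreated libraries. In budesonide libraries it took 11.5% to 13.1%, so the groups overlapped. The nuclear RNA Malat1 took 0.994% to 1.03% untreated and 1.56% to 1.61% with budesonide, and mitochondrial protein genes 1.27% to 1.36% and 1.04% to 1.21%. Both of these shares separated the groups, and their part in the results below was not tested. Of 17155 genes tested, 4917 (28.7%) differed between the groups at an adjusted p under 0.05 in edgeR's quasi-likelihood test, 15.2% higher and 13.5% lower with budesonide. The split of 2601 higher to 2316 lower genes was 2178 to 2873 under upper quartile scaling, 2003 to 3186 without scaling factors and 1999 to 1318 in DESeq2. In DESeq2 22.4% of the genes given an adjusted p passed. The aggregates also differed in cell state: the summed level of 8 pluripotent markers was 1329 to 1369 CPM untreated and 1799 to 1965 CPM with budesonide, and 8 mesoderm and tailbud markers summed to 225.1 to 239.3 and to 9.58 to 11.5 CPM. Of the former 6 of 8 rose, and of the latter all 3 with enough reads to test fell (T, Nkx1-2 and Cdx1). T at 126.6 and Nkx1-2 at 89.0 CPM made up most of the untreated sum. The rest had too few reads to test. Of these, Tbx6 (mean 1.36 to 0.84 CPM) and Msgn1 (4, 3 and 1 reads untreated, 0 in each budesonide library) were lower. Meox1 (0.80 to 1.00 CPM), Hand2 (0.55 to 0.90) and Mesp1 (0.46 to 0.51) were level or higher with budesonide. Markers of primitive endoderm summed to 23.4 to 33.1 CPM untreated and 13.1 to 16.6 CPM with budesonide, but Foxa2 was the only 1 of 6 tested that was called, and without it the sums overlapped (14.9 to 20.5 and 12.3 to 16.2 CPM). Trophectoderm markers summed to 49.8 to 63.7 and 41.0 to 47.3 CPM. Of these Cdx2 and Eomes fell and Tfap2c rose, from 18.5 ± 2.97 to 27.8 ± 3.98 CPM. Without Cdx2 and Eomes the sums were 22.3 to 31.4 and 32.2 to 38.7 CPM, most of it Tfap2c. Because the genes left out were those called lower, these sums do not show a rise of the other trophectoderm markers. Fibroblast and feeder markers, of which 2 of 6 tested fell in edgeR and 0 in DESeq2, summed to 27.7 to 30.0 and 18.0 to 21.7 CPM. Without those that fell, Col1a2 and Thy1, the sums stayed apart (17.4 to 20.1 and 13.0 to 16.0 CPM). In these bulk samples fewer cells of a type and less RNA per cell cannot be told apart, and the part of this shift in the results below was not tested.

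The p53 genes split, with most of them higher and the p21 and NOXA genes lower. Of the 10, 6 rose (Trp53, Mdm2, Ccng1, Trp53inp1, Sesn2 and Bax), 2 fell (Cdkn1a and Pmaip1), and Bbc3 and Zmat3 did not pass the test. Abundant genes pass more often: among the 5768 genes at or above the mean level of Bbc3 (27.1 CPM), 46.3% passed, 28.4% higher and 17.8% lower. Against these shares stand 80% of the 10 genes passing, 60% higher and 20% lower. In 8 of the 10 the CPM values of the groups did not overlap, which was so for 39.6% of all tested genes. These 8 are the genes that passed, so this is not separate support. The share without overlap among abundant genes was not measured. The median log2 fold change, budesonide over untreated, was 0.26 over the 10 genes, 0.05 over the genes at or above the mean level of Bbc3 and -0.02 over all tested genes.

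**Figure D1:**
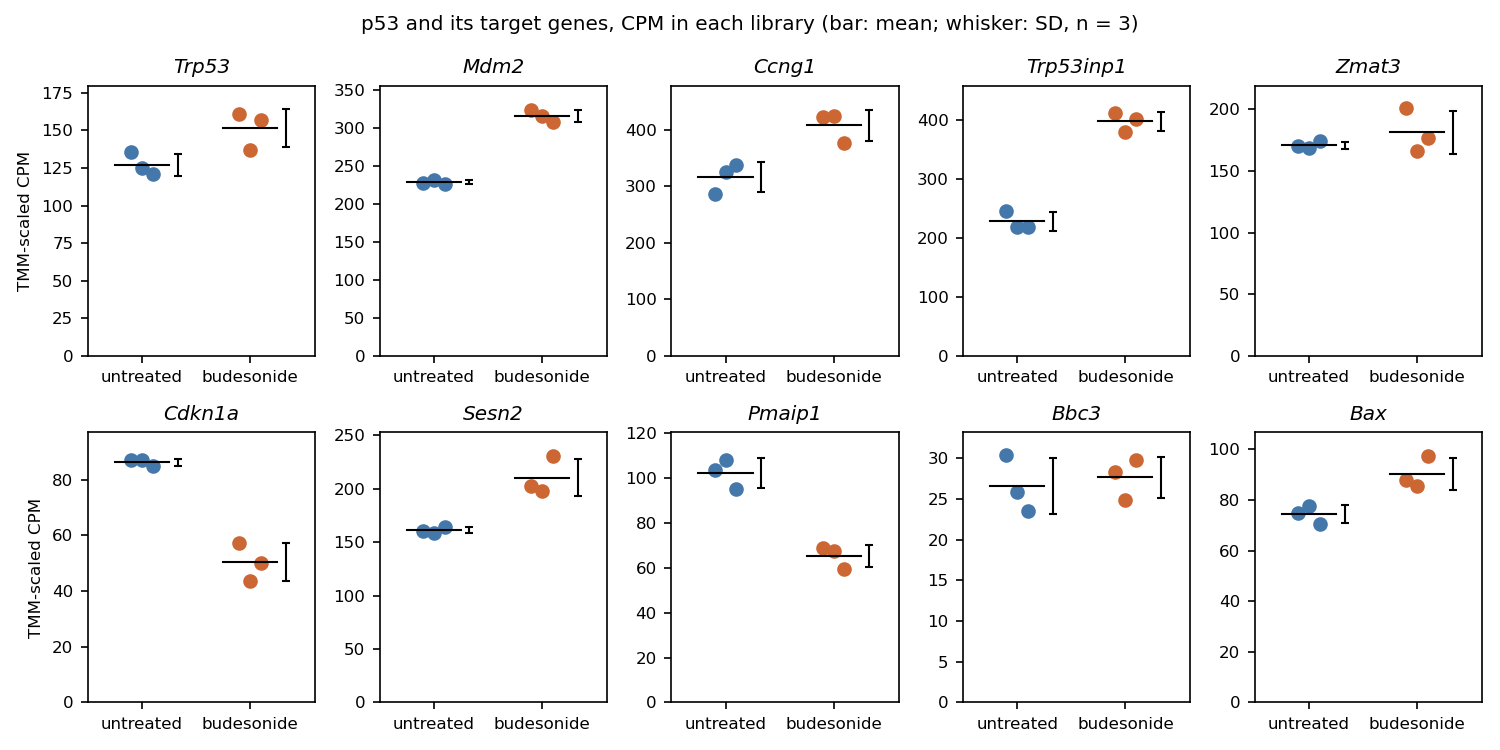
TMM-scaled CPM of each p53 gene (y axis, from 0) in the 3 untreated and 3 budesonide libraries; points are libraries, bars are means and whiskers are SD. The groups are apart in every panel other than Zmat3 and Bbc3, with budesonide below untreated for Cdkn1a and Pmaip1 and above it for the other 6.

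Trp53 itself was at 135.5, 124.7 and 121.1 CPM in untreated and at 160.6, 137.2 and 156.6 CPM in budesonide replicates 1, 2 and 3. The lowest budesonide library stood just above the highest untreated one. The difference, 1.19-fold, was the smallest of those that passed (log2 fold change 0.25 ± 0.07, SE; edgeR adjusted p = 0.00284; DESeq2 adjusted p = 0.0125). Its family members did not pass: Trp73 was at 33.5 ± 1.31 and 30.8 ± 2.71 CPM (mean ± SD, n = 3), and Trp63 was at 2.81 ± 0.809 and 2.22 ± 1.17 CPM. Wrap53, the neighbour that begins next to Trp53 on the opposite strand, was at 18.8 ± 0.985 and 18.7 ± 3.76 CPM and did not pass (log2 fold change -0.03, 95% interval -0.30 to 0.24). In the GENCODE M21 annotation no exon of Wrap53 overlaps one of Trp53.

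Among the genes that feed back on p53, the main inhibitor Mdm2 was at 227.1, 231.3 and 226.2 CPM in untreated and 323.5, 315.7 and 307.9 CPM in budesonide libraries. Each group was tight and they were far apart, a rise of 1.38-fold (log2 fold change 0.47 ± 0.06, SE; edgeR adjusted p = 3.73e-09). Mdm4, the partner of MDM2 that blocks the activation domain of p53, rose 1.52-fold, from 305.8 ± 3.16 to 464.8 ± 26.8 CPM. The reads of Mdm2 per read of Trp53 went from 1.80 ± 0.107 to 2.09 ± 0.181, and those of Mdm2 per read of Mdm4 from 0.746 ± 0.00318 to 0.680 ± 0.0224, in both cases with no overlap between the groups. The pairs for these and the later ratios were picked by hand, and each holds a gene called in the test. Their separation is therefore not support apart from those calls.

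Ccng1 encodes cyclin G1, which recruits a phosphatase to MDM2 and lacks a classical role in cycle progression. It was at 285.8, 325.5 and 337.5 CPM untreated and 422.1, 424.7 and 376.9 CPM with budesonide, and rose 1.29-fold (log2 fold change 0.37 ± 0.06, SE; edgeR adjusted p = 3.74e-06). Trp53inp1, a nuclear and autophagy protein that helps p53 kinases act on p53, was at 246.3, 219.3 and 218.7 CPM untreated and 411.4, 380.0 and 401.2 CPM with budesonide. This was the largest change of the 10, 1.74-fold (log2 fold change 0.80 ± 0.06, SE; edgeR adjusted p = 1.99e-15), larger in size than that of 90.1% of all tested genes. Its reads per read of Trp53 rose from a mean of 1.79 to 2.63. Zmat3, an RNA-binding zinc finger protein that regulates splicing, was at 170.1, 168.6 and 174.2 CPM untreated and 200.9, 166.4 and 176.7 CPM with budesonide. Budesonide replicate 1 was high and replicate 2 was below every untreated library, so the groups overlapped, and the log2 fold change of 0.09 (95% interval -0.04 to 0.22; edgeR adjusted p = 0.350) did not pass.

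Cdkn1a, whose p21 product inhibits cyclin-dependent kinases and is the main effector of p53 in cell cycle arrest, went the other way. It was at 87.0, 87.0 and 84.8 CPM in untreated and 57.2, 43.6 and 50.2 CPM in budesonide libraries. The untreated values were nearly equal and the budesonide values more scattered, but the highest of them was well below the lowest untreated one. The fall was 1.71-fold (log2 fold change -0.78 ± 0.08, SE; edgeR adjusted p = 1.05e-10). The reads of Cdkn1a per read of Mdm2 were 0.383, 0.376 and 0.375 untreated and 0.177, 0.138 and 0.163 with budesonide. These ratios do not depend on scaling between libraries. With 3 against 3 libraries an exact two-sided permutation test of a single ratio cannot give a p below 0.1. Because the strand setting of the counting is not given in the sources used here, reads of an opposite-strand gene model that overlaps Cdkn1a in GENCODE M21, AC167363.2, cannot be told apart from its own.

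Sesn2 encodes sestrin 2, a leucine sensor and antioxidant protein that restrains mTORC1, and is also a target of the stress factor ATF4. It was at 160.4, 158.7 and 164.3 CPM untreated and 202.6, 198.1 and 230.2 CPM with budesonide, a rise of 1.30-fold (log2 fold change 0.38 ± 0.06, SE; edgeR adjusted p = 3.29e-06). The other sestrins also rose, Sesn1, a p53 target, from 14.3 ± 0.731 to 19.5 ± 1.38 CPM, and Sesn3, known as a FOXO target, from 55.8 ± 3.80 to 72.3 ± 4.65 CPM. Of all tested genes 15.2% were higher and 13.5% lower, and of those at or above the mean level of Bbc3 28.4% and 17.8%. Beside these shares, of 12 tested genes of the ATF4 stress response 10 (83.3%) rose and 1 (8.33%) fell, with a median log2 fold change of 0.63. The gene that fell, Ddit4, an mTORC1 inhibitor that glucocorticoids are also known to induce, lost its call (edgeR adjusted p = 0.0492) in 13 of the 16 alternatives, among them each fit without 1 library (0.0646 to 0.211). The summed level of the 12 was 789.2 to 812.3 CPM untreated and 1095 to 1183 CPM with budesonide. Asparagine synthetase, Asns, rose 2.01-fold, Trib3 1.98-fold, and Atf4 itself from 330.5 ± 17.9 to 442.1 ± 41.9 CPM. The part of the ATF4 genes in the Sesn2 result was not tested.

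The 3 apoptosis genes each did something different. Pmaip1 encodes NOXA, a BH3-only protein that neutralises MCL1. It was at 103.8, 108.1 and 95.2 CPM untreated and 68.9, 67.5 and 59.6 CPM with budesonide, a fall of 1.56-fold with the groups well apart (log2 fold change -0.64 ± 0.07, SE; edgeR adjusted p = 1.12e-09). Bbc3 encodes PUMA, a BH3-only protein that binds all the main survival proteins of the BCL2 family. It was at 30.3, 25.9 and 23.6 CPM untreated and 28.3, 24.9 and 29.8 CPM with budesonide. The groups overlapped, and the log2 fold change of 0.05 (95% interval -0.18 to 0.28; edgeR adjusted p = 0.790) did not pass. Bax, the pore-forming executioner, was at 75.0, 77.6 and 70.5 CPM untreated and 87.8, 85.4 and 97.4 CPM with budesonide, and rose 1.21-fold (log2 fold change 0.27 ± 0.07, SE; edgeR adjusted p = 0.00297; DESeq2 adjusted p = 0.0135). The reads of Pmaip1 per read of Bax fell from 1.38 ± 0.0229 to 0.729 ± 0.102.

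**Figure D2:**
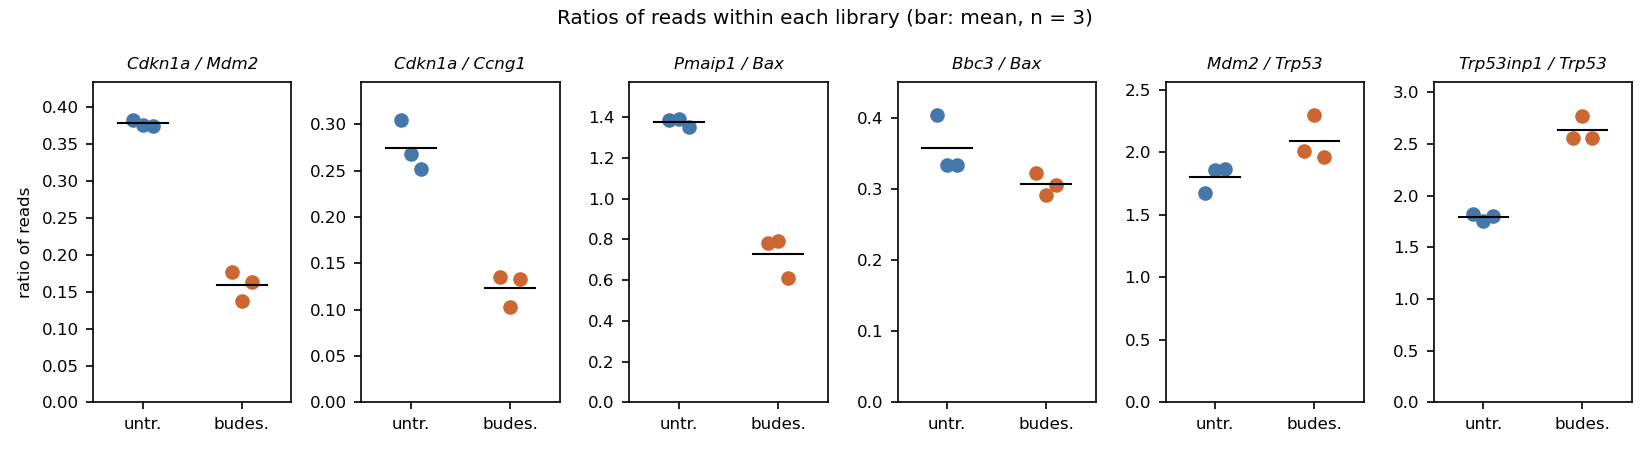
Ratios of the reads of 2 genes in the same library (y axes, from 0) for the 3 untreated and 3 budesonide libraries; points are libraries and bars are means. Cdkn1a per Mdm2 went from a mean of 0.378 to 0.159 and Trp53inp1 per Trp53 from 1.79 to 2.63. The groups do not overlap in any of the 6 panels, but for Bbc3 per Bax they nearly meet (highest budesonide 0.323, lowest untreated 0.333). The pairs were picked by hand and each holds a gene called in the test, so their separation is not separate support. How often other pairs separate was not measured.

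Levels were compared between genes only per length, as CPM per kilobase of the longest GENCODE M21 transcript. Which transcripts were present was not measured. A gene with shorter ones would stand higher in this order, and the SDs do not include this. In untreated aggregates Ccng1 was the highest at 90.1 ± 7.70, followed by Mdm2 at 72.6 ± 0.858 and Bax at 67.6 ± 3.25, and Sesn2 at 46.4 ± 0.829 came next. Trp53inp1 (42.0 ± 2.90), Cdkn1a (41.5 ± 0.610), Trp53 (38.8 ± 2.29) and Pmaip1 (37.5 ± 2.41) were close together, and neighbours in this order differed by less than the sum of their SDs. Zmat3 at 21.9 ± 0.375 and Bbc3 at 14.7 ± 1.90 were the lowest. With budesonide the order began with Ccng1 at 116.1 ± 7.66, Mdm2 at 100.4 ± 2.47 and Bax at 82.0 ± 5.81. Trp53inp1, at 73.2 ± 2.95, now stood above Sesn2, at 60.5 ± 5.0, and Trp53, at 46.2 ± 3.83. Cdkn1a (24.2 ± 3.28) and Pmaip1 (24.0 ± 1.85) then lay beside Zmat3 (23.3 ± 2.27), again within the sum of their SDs, and Bbc3 was last at 15.2 ± 1.39.

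**Figure D3:**
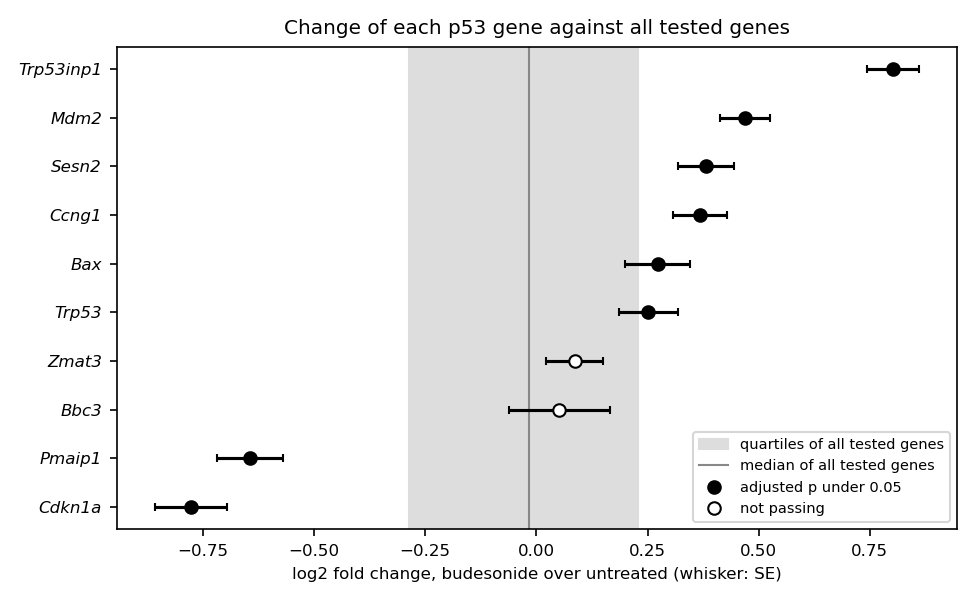
Log2 fold change of each p53 gene, budesonide over untreated (x axis; whiskers are SE), with the median and the quartiles of the 17155 tested genes as a line and a grey band. Trp53inp1 at 0.80 and Cdkn1a at -0.78 lie at the ends, and the open points of Zmat3 and Bbc3, which did not pass, lie inside the band.

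Of 59 further targets listed by role, 58 were tested, of which 18 (31.0%) rose and 4 (6.90%) fell, with a median log2 fold change of 0.13. Over all tested genes 15.2% were higher and 13.5% lower, and over those at or above the mean level of Bbc3 28.4% and 17.8%; of the 58, 25 lay below that level. The share that rose was thus near that of the abundant genes, and the share that fell was below both backgrounds. The counts for single lists below stand beside the same 2 pairs of shares. Across this list the number that fell moved between 2 and 9 with the settings: it was 8 under upper quartile scaling, 9 without scaling factors, and 2 in DESeq2, without untreated replicate 3 or without budesonide replicate 2.

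Of 8 further arrest targets, 5 (62.5%) rose and 0 fell in edgeR (0 fell also at an unadjusted p under 0.05, and 0 in DESeq2, where 4 rose), with a median log2 fold change of 0.27. Plk3, a stress-activated kinase, went from 23.4 ± 1.33 to 65.5 ± 1.85 CPM, 2.80-fold higher, and Gadd45a, which binds PCNA and p21 and acts in arrest and repair, from 35.8 ± 5.28 to 64.1 ± 2.78 CPM. Plk2 rose 1.19-fold. Btg2, an antiproliferative cofactor of mRNA decay, passed in edgeR (1.21-fold, adjusted p = 0.0202) but in 6 of the 16 alternatives it did not, among them DESeq2 (adjusted p = 0.0730) and the fits without untreated replicate 1 (0.0867) or budesonide replicate 1 (0.0928).

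Of 14 further apoptosis targets 2 (14.3%) rose and 1 (7.14%) fell, with a median log2 fold change of -0.05. Bid, a BH3-only protein cleaved by caspase 8, rose 1.47-fold to 33.7 ± 3.54 CPM, and the TNF receptor family gene Eda2r rose to 66.4 ± 4.23 CPM (log2 fold change 0.32 ± 0.08, SE). Pidd1, the scaffold of the PIDDosome, fell 1.16-fold (edgeR adjusted p = 0.0424) but lost its call in 11 of the 16 alternatives. These include the fits without untreated replicates 1, 2 or 3 (adjusted p = 0.0754, 0.0932 and 0.155) and without budesonide replicates 2 or 3 (0.261 and 0.0767). Neither the nuclease gene Aen, at 165.9 ± 2.51 and 149.3 ± 0.493 CPM, nor Perp, a desmosomal tetraspan protein, at 12.2 ± 3.13 and 9.01 ± 0.973 CPM, passed. Both were called lower under upper quartile scaling (edgeR adjusted p = 0.00453 and 0.0393) and without scaling factors (0.00160 and 0.0307). Aen was also called lower without ribosomal and mitochondrial RNA (0.0326), and Perp with a GC and length offset (0.0464) and when untreated replicate 2 was left out (0.0227).

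Among 8 further feedback targets, which include Mdm4, 4 (50%) rose and 0 fell in edgeR (1 was lower at an unadjusted p under 0.05; DESeq2 called 2 higher and 0 lower), with a median log2 fold change of 0.22. Ppm1d, whose phosphatase WIP1 shuts down the damage response, was at 35.4 ± 0.635 and 39.3 ± 3.41 CPM and did not pass. Phlda3, an AKT inhibitor, passed (1.21-fold, edgeR adjusted p = 0.0145) although its groups overlapped, and it lost its call in DESeq2 (adjusted p = 0.0630), without scaling factors (0.0859), and when untreated replicate 3 (0.0710), or budesonide replicates 1 or 3 (0.0534 and 0.155), were left out.

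Of 19 metabolic and stress targets 6 (31.6%) rose and 3 (15.8%) fell, shares near the 28.4% and 17.8% of the abundant genes (median log2 fold change 0.11). The hydrolase gene Abhd4 rose 1.64-fold and glutathione peroxidase 1, Gpx1, 1.40-fold. The ephrin receptor gene Epha2 fell from 198.6 ± 18.4 to 137.1 ± 9.59 CPM and Crip2, a LIM domain protein, fell 1.49-fold. Tigar, which lowers glycolytic flux, passed in edgeR (1.23-fold, adjusted p = 0.0369) and lost its call in 8 of the 16 alternatives, among them DESeq2 (0.115) and the fits without untreated replicates 1 or 3 (0.137 and 0.0931) or budesonide replicates 2 or 3 (0.118 and 0.0525). Of 9 DNA repair targets 1 (11.1%) rose and 0 fell (2 were higher and 0 lower at an unadjusted p under 0.05, and DESeq2 called 1 higher and 0 lower), with a median of 0.08. The damage recognition genes Xpc, at 65.7 ± 1.35 and 66.1 ± 4.45 CPM, and Ddb2, at 11.1 ± 1.45 and 11.7 ± 0.983 CPM, did not pass. The gene that rose, the nuclease gene Ercc5 (edgeR adjusted p = 0.0222), lost its call in 5 alternatives, among them the fits without untreated replicate 1 (0.0857) or budesonide replicate 1 (0.108).

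**Figure D4:**
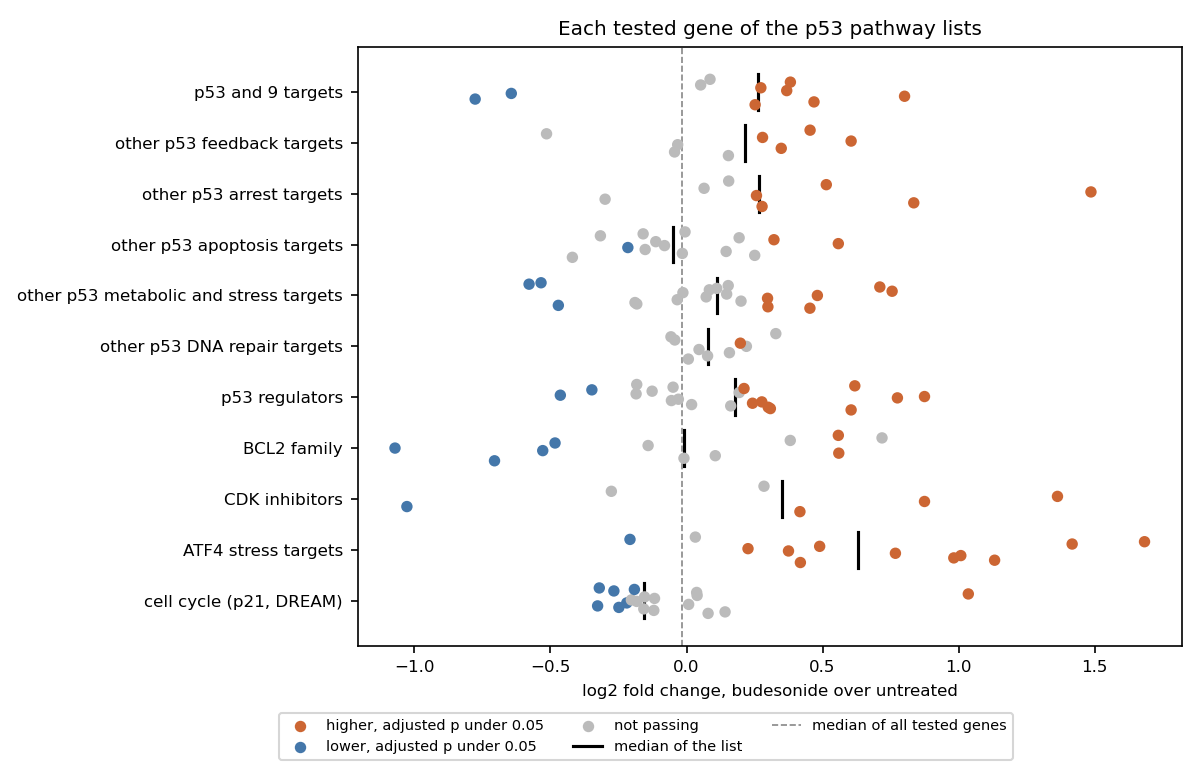
Log2 fold change of every tested gene (points) in the p53 genes and 10 related lists (y axis), with each list's median as a black bar and the median of all tested genes dashed. ATF4 targets lie mostly to the right of the dashed line, and of the 18 cell cycle genes repressed through p21 12 lie to its left and 6 to its right, among the latter Mybl2 at 1.04.

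Of 20 genes that act on p53 from upstream, 9 (45%) rose and 2 (10%) fell (median log2 fold change 0.18), against 28.4% and 17.8% of the abundant genes and 15.2% and 13.5% of all tested genes. The 20 include Mdm4, which rose and is also counted among the further feedback targets. Sirt1, a deacetylase of p53, rose from 72.4 ± 1.76 to 124.0 ± 4.79 CPM, and Cdkn2a, whose ARF product blocks MDM2, from 8.82 ± 0.972 to 16.1 ± 1.78 CPM. The locus also encodes the CDK inhibitor p16, which gene-level counts do not separate from ARF. Hipk2, a kinase that directs p53 to apoptosis genes, fell 1.38-fold. Ppp1r13l, encoding the p53 inhibitor iASPP, was called lower (edgeR adjusted p = 0.0246) but not in 7 alternatives.

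Of the 6 other CDK inhibitor genes 3 (50%) rose and 1 (16.7%) fell. Cdkn2a, already counted among the genes upstream of p53, is 1 of the 3 that rose. Cdkn1b, encoding p27, rose from 33.7 ± 1.44 to 45.1 ± 2.63 CPM and Cdkn2b, encoding p15, from 2.38 ± 0.433 to 6.24 ± 1.52 CPM, while Cdkn1c, encoding p57, fell from 32.6 ± 2.75 to 16.0 ± 1.48 CPM. Per length, Cdkn1a was above each of these in both groups, at 24.2 ± 3.28 CPM per kilobase with budesonide against 9.90 ± 0.577 for Cdkn1b and 18.0 ± 1.99 for Cdkn2a. Of 18 cell cycle genes that p53 is known to lower through p21 and the DREAM complex, 1 (5.56%) rose and 6 (33.3%) fell, with a median log2 fold change of -0.16. Mybl2, a DREAM target that drives S and G2 genes, rose from 286.6 ± 9.60 to 587.7 ± 51.8 CPM, whereas the mitotic kinesin gene Kif20a fell from 212.6 ± 10.2 to 170.3 ± 5.99 CPM and the proliferation marker gene Mki67 fell 1.20-fold.

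Other genes of the BCL2 family, to which NOXA, PUMA and BAX also belong, gave 2 rises (18.2%) and 4 falls (36.4%) among 11 tested. Against these stand 28.4% and 17.8% of the abundant genes and 15.2% and 13.5% of all tested genes. Bid, 1 of the 2 that rose, is also counted among the further apoptosis targets. Mcl1, the survival protein that NOXA binds, rose from 317.1 ± 4.10 to 467.4 ± 20.3 CPM. The reads of Bax per read of Mcl1 went from 0.235 ± 0.0141 to 0.193 ± 0.00910. Bak1, another pore-forming executioner, fell from 34.9 ± 2.29 to 24.3 ± 2.18 CPM, and the BH3-only gene Bcl2l11, encoding BIM, from 42.4 ± 3.03 to 30.2 ± 2.84 CPM. Bcl2l1, encoding the survival protein BCL-XL, was at 30.5 ± 5.07 and 30.5 ± 1.43 CPM and did not pass (log2 fold change -0.01, 95% interval -0.23 to 0.21). Bcl2 fell to 3.73 ± 0.731 CPM in edgeR (adjusted p = 0.0296) but not in DESeq2 (0.172), nor without untreated replicates 1 or 2 (0.0911 and 0.154) or budesonide replicates 1 or 2 (0.162 and 0.0553).

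The calls of the 10 genes held in all 16 other settings run, which cover another tool, other scalings and filters, a replicate block, limma, GC and length offsets, removal of ribosomal and mitochondrial RNA and leaving out each library. In each of them 6 rose and 2 fell. The highest adjusted p over the alternatives was 0.0451 for Trp53 and 0.0338 for Bax, and the log2 fold change ranged from 0.17 to 0.33 and from 0.19 to 0.36. Cdkn1a ranged from -0.88 to -0.66 and Pmaip1 from -0.72 to -0.58. Bbc3 crossed 0, from -0.03 to 0.17, and passed in none (lowest adjusted p 0.250), and Zmat3 passed in none either (lowest 0.0587).

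**Figure D5:**
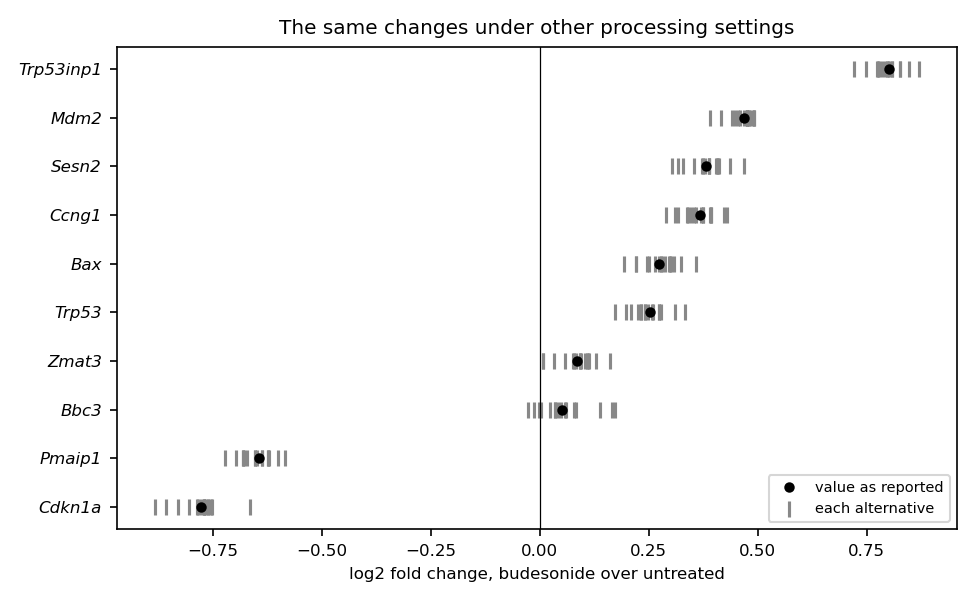
Log2 fold change of each p53 gene, budesonide over untreated (x axis), as reported (dots) and in each of 16 alternative settings (ticks). The ticks of all genes but Bbc3 stay on 1 side of 0, and those of Trp53inp1 lie from 0.72 to 0.87.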

How the data were processed

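Polyadenylated RNA of the 6 aggregate samples was sequenced from stranded libraries, per the labels' protocols. The authors deposited raw read counts per gene symbol; per the submitters' processing notes the build was GRCm39 and the tools included STAR 2.7.5c, cutadapt 2.5, featureCounts 2.0 and DESeq2. For counting parameters, strand setting and annotation version: not given in the sources used here. A second deposited table holds a normalized signal, checked to be the count divided by 1 DESeq2 size factor per library for the 33560 genes with over 10 reads.

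Groups and replicate numbers came from sample titles. Counts were tested with edgeR 4.0.16 in R 4.3.3 on the genes that filterByExpr retained. Its minimum count of 10 reads acts as a CPM cutoff in at least as many libraries as a group holds, not in every library. A total of 15 reads was also required. The fits used TMM scaling and robust quasi-likelihood on group alone, with Benjamini-Hochberg adjustment over all 17155 genes at 0.05. SEs and 95% intervals were derived from the F statistic. Alternatives used DESeq2 1.42.0, limma 3.58.1 on log2 of the normalized signal plus 1, and other settings, 16 in all, of which 2 (GC and length offset; no ribosomal or mitochondrial RNA) were chosen after seeing the data.

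The genes and lists were chosen with earlier results of these data known. Named genes are the 10, a list of anchor genes, and up to 2 risen and 2 fallen genes per list with the smallest adjusted p at a mean of at least 1 CPM; not every gene that the rule takes is described. Counts were simulated for budesonide against untreated over 17155 genes, with 50 genes changed at each fold. Of these, 54% were recovered at 1.25-fold, 72% at 1.5-fold and 98% at 2-fold. There 10 calls were false, and counts simulated with no change gave 4 calls.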

Additional observations from a re-analysis of the deposited data

How the results depend on the processing

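The calls of the 10 p53 genes were the same in all 16 alternatives, 6 higher and 2 lower, also with the replicate block. Their median log2 fold change was 0.18 with no scaling factors, where the median of all tested genes was -0.10, and it ranged from 0.23 to 0.33 when 1 library was left out, the highest without budesonide replicate 2. DESeq2 called 1318 genes lower over the whole table, against 2316 in edgeR. Of the further p53 targets, the number called lower was 2 in DESeq2, 8 with upper quartile scaling and 9 with no scaling factors, and 2 to 4 when 1 library was left out. The replicate block gave 4986 changed genes and 4 further targets lower and changed the call of Ddit4 alone among the named genes (edgeR adjusted p = 0.0537, against 0.0492 without it). Deviations of same-numbered libraries correlated at 0.0404, 0.0595 and -0.0176, so the numbers were not treated as pairs. Of genes simulated with a 1.5-fold change 72% were recovered, so smaller changes can be missed at this depth and Bbc3 and Zmat3 are not shown to be unchanged. Targets at a few CPM, such as Trp63, are measured poorly.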
